A study of Mus musculus with 2 samples.

Results

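In cultured mouse neural stem cells (NSCs), the 41 genes of the ephrin, Slit-Robo and netrin guidance systems were examined among 23257 known genes. The genes were chosen by symbol alone: 9 *Epha* and 5 *Ephb* receptor genes, 5 *Efna* and 3 *Efnb* ephrin genes, 3 *Slit* and 4 *Robo* genes, 4 netrin genes (*Ntn1*, *Ntn3*, *Ntn4* and *Ntn5*), 2 netrin-G genes (*Ntng1* and *Ntng2*), 4 *Unc5* genes, *Dcc* and *Neo1*. The symbols were sought in the table of known genes, so all 41 are in it by this choice. The rule for the choice uses no expression value, but it was set with earlier results of these data known. The NSCs had been isolated from the cerebral cortex of CD-1 mouse embryos (E14.5), were bought from a supplier, and were kept in monolayer culture in medium with EGF at 20 ng/ml and FGF at 20 ng/ml. Poly(A)+ RNA of these cells gave 2 libraries, NSC replicates 1 and 2, of 1 condition, with no allele or treatment that differs between them. The study calls its replicates of these cells biological. Separate cultures are not stated in the sources used here, and each SD below is the spread between these libraries (n = 2). Levels are FPKM, fragments counted relative to the length of the transcript and to the library's total of mapped fragments, so they are per length and can be set beside each other between genes. The lowest value of the tables is 0.1. The tables give no read counts. The study states an average number of reads over all its samples, but not that of each NSC library. The fragments behind a value were therefore not counted here.

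All 12 listed markers of NSCs and radial glia exceeded FPKM 1 in both libraries, where 47.7% of all known genes did. The 5 microglia markers were all at 0.1 in both, where 40.3% of known genes were. The markers were chosen with earlier results of these data known, so these counts do not settle the kind of the cells. Of 5 endothelial markers 4 were at 0.1 in both libraries and *Kdr* was at 0.238 and 0.139 in replicates 1 and 2. Of 9 neuron markers 4 exceeded FPKM 1 in both libraries and 2, *Stmn2* and *Tbr1*, were at 0.1 in both. The summed FPKM of all 9 was 122 and 126 in replicates 1 and 2, of which *Map2* alone had 102 and 106. *Snap25* had 10.03 and 10.92, *Tubb3* 6.61 and 6.13, and *Rbfox3* 1.10 and 1.09. *Syt1* was at 1.04 and 0.990, *Dcx* at 0.524 and 0.652, and *Neurod1* at 0.303 and 0.202. All 6 OPC markers and all 4 astrocyte markers were above FPKM 1. Means of the OPC markers ran from 1.86 (*Sox10*) to 526 (*Olig1*), and those of the astrocyte markers from 1.40 (*S100b*) to 23.6 (*Aldh1l1*). Of 5 pericyte and fibroblast markers only *Acta2* exceeded FPKM 1, with a mean of 11.4. The part of such cells in the levels below was not tested. In RNA of a whole culture, few cells with much of an RNA and many cells with little of it cannot be told apart.

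Eph receptors are receptor tyrosine kinases that bind ephrins on neighbouring cells, and both partners signal. The ephrin-A ligands are tethered to the membrane by a lipid anchor and the ephrin-B ligands cross it. Slits are large secreted proteins that repel axons and migrating cells through Robo receptors. Netrins are laminin-related secreted proteins that act through DCC and neogenin (*Neo1*), usually as attractants, and through UNC5 receptors as repellents. Besides steering growing axons, these systems act on progenitors of the developing cortex, on cell migration and on blood vessels.

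The guidance genes were spread over a range from the lowest value of the table to FPKM 23.1. Both libraries had more than FPKM 1 of 21 of the 41 genes (51.2%) and of 47.7% of all known genes, so this share was near that of genes at large. Only *Ntn1*, *Neo1* and *Ntn4* (7.32% of the members) were above FPKM 10 in both libraries, against 24.5% of known genes. At the other end, *Epha1*, *Epha6*, *Epha8*, *Robo4* and *Slit3* (12.2%) were at 0.1 in both libraries, against 40.3% of known genes. The members lay mostly in between: 15 were neither at 0.1 in both libraries nor above FPKM 1 in both (36.6%, with 12.1% of known genes in the same class), and 18 were between FPKM 1 and the class above FPKM 10 (43.9% against 23.1%). The median of the members was 1.41 and 1.47 in replicates 1 and 2, and that of all known genes 0.684 and 0.708. Among genes above FPKM 1 in both libraries, the order was the other way round, with a median of 3.42 for the guidance genes and 10.8 for known genes.

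**Figure D1:**
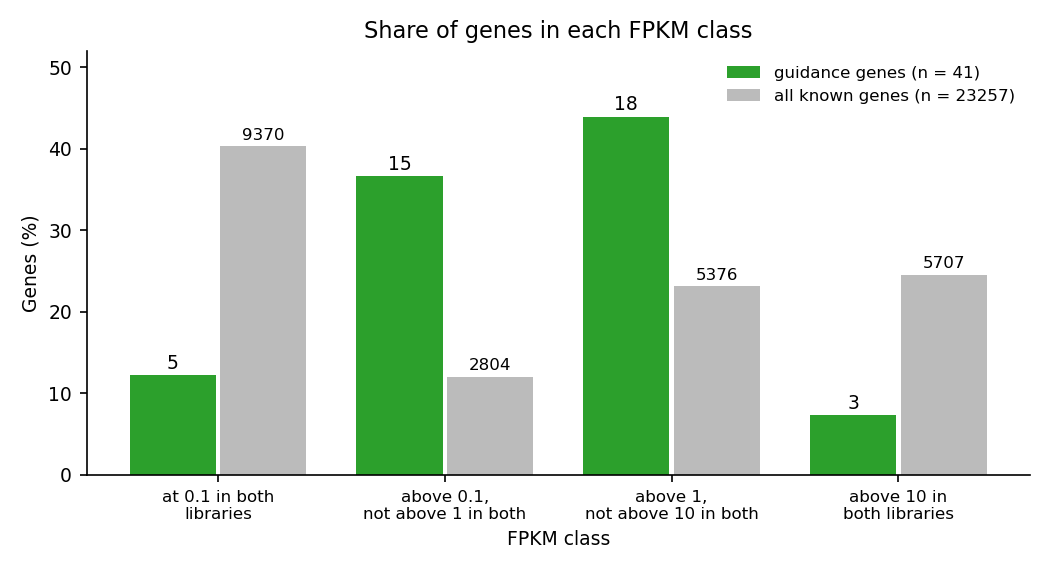
Share of genes (%, vertical axis) in 4 FPKM classes (horizontal axis) for the 41 guidance genes and for all 23257 known genes, with the number of genes above each bar. Guidance genes fill the classes on either side of FPKM 1 (15 and 18 genes), whereas known genes are most often at 0.1 (9370 genes).

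**Figure D2:**
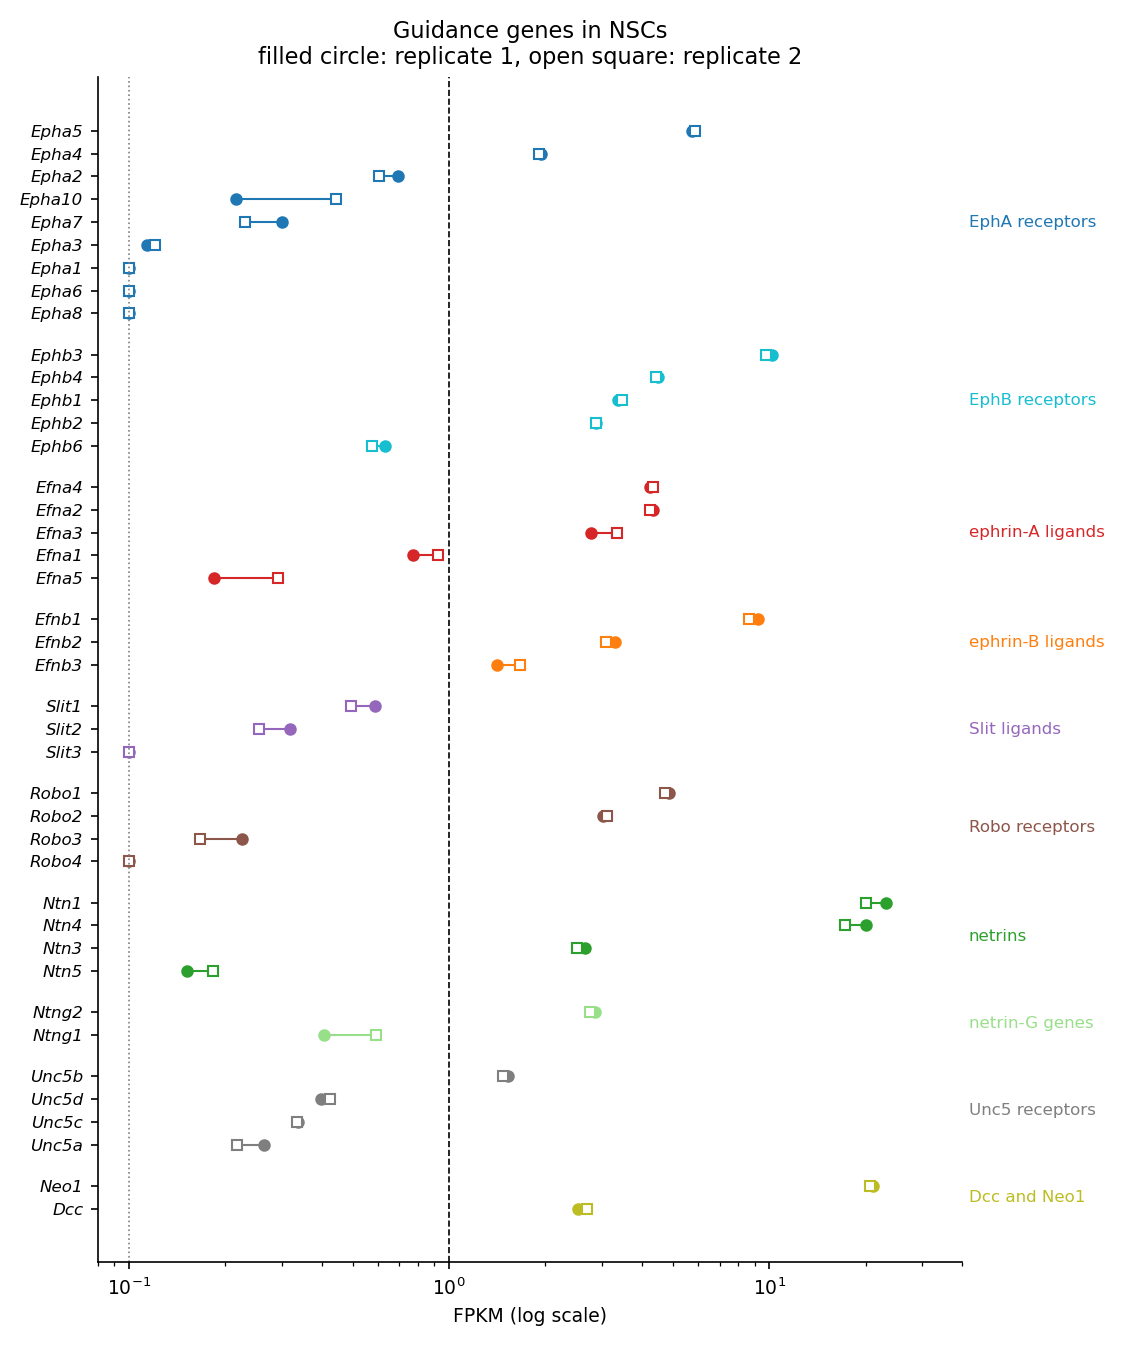
FPKM on a log scale (horizontal axis) of each guidance gene, grouped by family, in replicate 1 (filled circles) and replicate 2 (open squares); the dashed line is FPKM 1 and the dotted line the lowest value, 0.1. *Ntn1*, *Neo1* and *Ntn4* lie farthest to the right, all 3 Slit genes lie left of the dashed line, and the symbols of 5 genes lie on the dotted line.

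The netrin genes *Ntn1* and *Ntn4* had the highest FPKM of the guidance ligands. *Ntn1*, the founding netrin of commissural axon guidance, had 23.1 and 20.0 in replicates 1 and 2 (21.6 ± 2.21, SD, n = 2), and is found at 68209364 to 68400823 of chromosome 11 (GRCm38, minus strand). *Ntn4*, whose product is also a basement membrane protein that binds laminin, had 20.0 and 17.2 (18.6 ± 1.99). Both were higher in replicate 1. The lower value of *Ntn1* (20.03) lay just above the higher value of *Ntn4* (20.02), and *Ntn1* was 1.16-fold higher within each library. *Ntn3* had 2.66 and 2.51, and 89 of its exon bases (1.74%) also belong to *Tbc1d24* on the same strand, which had 3.92 and 3.93. *Ntn5* had 0.152 and 0.183, just above the lowest value. *Ntn1* and *Ntn4* together therefore held nearly all of the summed FPKM of the 4 netrins, 50.3% ± 0.124 and 43.3% ± 0.318. The netrin-G genes encode membrane-anchored relatives that bind NGL proteins at synapses and not DCC. *Ntng2* had 2.86 and 2.76 and *Ntng1* 0.406 and 0.592. Of the exon bases of *Ntng2* 558 (14.0%) also belong to *6530402F18Rik* on the same strand, which had 2.42 and 2.09.

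Among netrin receptors, *Neo1* stood above all others. *Neo1*, of neogenin, found at 58874687 to 59036441 of chromosome 9 (minus strand), had an FPKM of 21.2 and 20.6 in replicates 1 and 2 (20.9 ± 0.410). Its range lay inside that of *Ntn1*, so their order was not resolved. *Dcc*, the receptor of commissural axons, had 2.53 and 2.69, and *Neo1* was 8.00-fold ± 0.515 higher over the libraries. *Unc5b*, a repulsive netrin receptor that endothelial cells and neurons use, was the only one of its family above FPKM 1, with 1.53 and 1.47. The others were lower in both libraries: *Unc5d* at 0.400 and 0.426, *Unc5c*, the gene of the rostral cerebellar malformation mouse, at 0.339 and 0.335, and *Unc5a* at 0.264 and 0.217. The summed FPKM was 23.5 ± 0.293 for *Dcc* and *Neo1* and 2.49 ± 0.0545 for the 4 *Unc5* genes, of which *Unc5b* made up 60.2% ± 0.195.

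*Robo1* and *Robo2* were higher than every Slit gene in both libraries, while *Robo3* and *Robo4* were below *Slit1* and *Slit2*. *Robo1*, a receptor of repulsion by Slits, had an FPKM of 4.87 and 4.71 in replicates 1 and 2, and *Robo2*, its close relative, 3.03 and 3.10. *Robo1* was higher in both libraries, 1.56-fold ± 0.0635. *Robo3*, which controls midline crossing of commissural axons, had 0.226 and 0.166, and *Robo4*, known from endothelial cells, was at 0.1 in both libraries. None of the 3 Slit genes was above FPKM 1. *Slit1*, the Slit most confined to the nervous system, had 0.589 and 0.495, *Slit2* 0.320 and 0.254, and *Slit3* was at 0.1 in both libraries. The microRNA genes *Mir218-1* and *Mir218-2*, which lie within *Slit2* and *Slit3*, were also at 0.1 in both libraries, in RNA selected for poly(A) tails that leaves out mature microRNAs. With genes at the lowest value counted as 0.1, the summed FPKM of the Robos was 8.23 and 8.08 and that of the Slits 1.01 and 0.849, a ratio of 8.84 ± 0.961 (SD, n = 2).

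Above FPKM 1 in both libraries were 4 of 5 *Ephb* genes and 2 of 9 *Epha* genes, beside 47.7% of all known genes. With so few genes, these counts are no result about either class. Of all Eph receptor genes *Ephb3* was the highest, with 10.2 and 9.80 in replicates 1 and 2. It is found at 21204755 to 21223305 of chromosome 16 (plus strand). *Ephb4*, known for its pairing with ephrin-B2 between veins and arteries, had 4.50 and 4.43, *Ephb1* 3.37 and 3.47, and *Ephb2* 2.88 and 2.88. The ranges of these 4 genes did not overlap. *Ephb6*, whose kinase domain is inactive, was the lowest, with 0.630 and 0.573. Among the EphA genes, *Epha5*, a receptor of ephrin-A ligands in axon mapping, had 5.74 and 5.85 and made up 61.7% ± 0.0942 of the summed FPKM of the family. *Epha4*, which binds ephrins of both classes, had 1.94 and 1.92.

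The remaining EphA genes were all below FPKM 1 in both libraries. *Epha2*, an epithelial receptor, had 0.695 and 0.606, *Epha7* 0.300 and 0.230, and *Epha3* 0.114 and 0.121. *Epha10*, the other Eph receptor without an active kinase, had 0.217 and 0.442, a 2.04-fold difference between the libraries. *Epha1*, *Epha6* and *Epha8* were at 0.1 in both libraries. Of the exon bases of *Epha1* 236 (6.01%) are shared with *Zyx* on the opposite strand, which had 20.0 and 19.0, and the libraries do not mark strand. Summed over the family and with genes at the lowest value counted as 0.1, the EphB genes had 21.6 and 21.1 and the EphA genes 9.31 and 9.47, a ratio of 2.28 ± 0.0597 (SD, n = 2).

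Ephrins of both classes were present at like summed levels. *Efnb1*, an X-linked gene whose product is a ligand of EphB receptors known to act on cortical progenitors, had 9.24 and 8.67 in replicates 1 and 2 (8.96 ± 0.407). *Efnb2* had 3.30 and 3.10, below *Efnb1*, which was 2.80-fold ± 0.00645 higher, and *Efnb3*, known as a midline barrier to corticospinal axons, had 1.41 and 1.66. All 3 ephrin-B genes were thus above FPKM 1, with ranges that did not overlap. Among ephrin-A genes, *Efna4* (4.25 and 4.34) and *Efna2* (4.33 and 4.24) could not be ordered, and *Efna3* had 2.77 and 3.35. *Efna1* had 0.772 and 0.924, the highest value of a gene below FPKM 1, and *Efna5*, a repellent ligand of retinal axons, had 0.184 and 0.292. The summed FPKM was 14.0 and 13.4 for ephrin-B genes and 12.3 and 13.1 for ephrin-A genes, a ratio of 1.08 ± 0.0785.

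**Figure D3:**
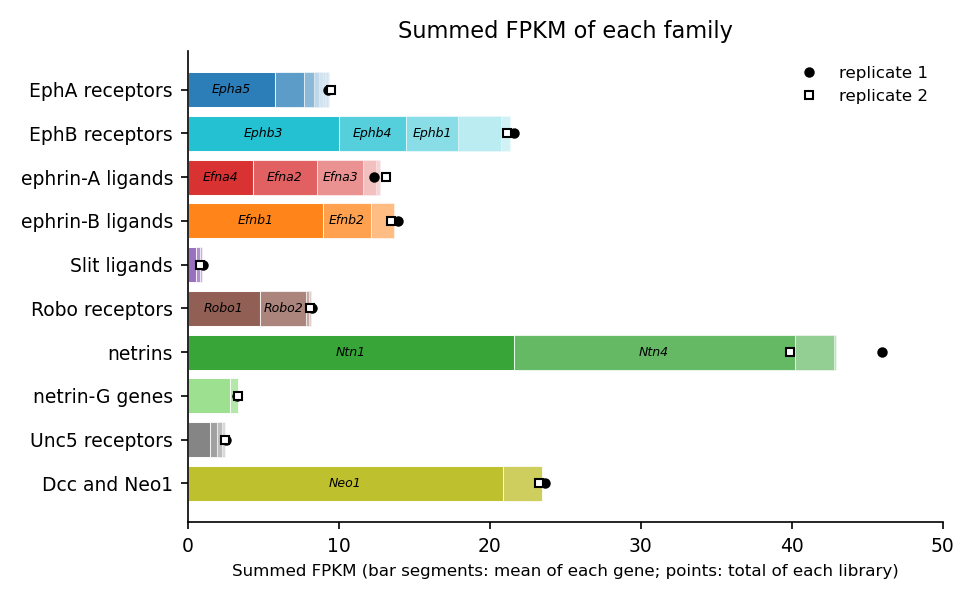
Summed FPKM (horizontal axis) of each family; each bar is divided into the mean FPKM of its genes, and the filled circle and open square are the totals of replicates 1 and 2. The netrins have the highest sum (46.0 and 39.9 in replicates 1 and 2) and the Slits the lowest (1.01 and 0.849).

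The order of the levels was resolved only in part. Of 35 neighbouring pairs in the order of the 36 genes with a mean above 0.1, 18 had library ranges that overlapped. At the top, *Ntn1* and *Neo1* overlapped, and *Ntn4*, *Ephb3*, *Efnb1*, *Epha5*, *Robo1* and *Ephb4* followed in an order held by both libraries. From *Efnb2* to *Ephb2* (means of 3.20 to 2.88), each gene overlapped the next. Below FPKM 1, most neighbours did. Over genes with a mean above FPKM 1, no member differed more than 1.5-fold between the libraries, where 0.34% of known genes did. A difference of this size was thus rare among genes at large, and 0 of 21 members is no result about the guidance genes. Their median absolute log2 ratio on the log2(FPKM + 0.1) scale was 0.05, beside 0.08 for the 7553 known genes in the same range of means.

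Of the 36 members with a mean above 0.1, 3 (8.33%) had a ratio between the libraries outside the 5th to 95th percentile of known genes of their level, a band that 10.1% of known genes lie outside, so this share is no result about the guidance genes. *Efna3* had the largest log2 ratio of replicate 2 over replicate 1 above FPKM 1, 0.26, where the 95th percentile of known genes with a mean of 2 to 5 was 0.28. The netrins *Ntn1* and *Ntn4* had log2 ratios of -0.21 and -0.22, outside the 5th percentile of known genes of their level, which was -0.13 for means of 20 to 50 and -0.16 for means of 10 to 20. *Epha10*, with 0.78, lay above the 95th percentile of 0.66 for means of 0.2 to 0.5. Below FPKM 1, *Epha10* and *Efna5* differed more than 1.5-fold in FPKM, 2 of 15 members, where 19.3% of 2702 known genes with means of 0.1 to 1 did.

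**Figure D4:**
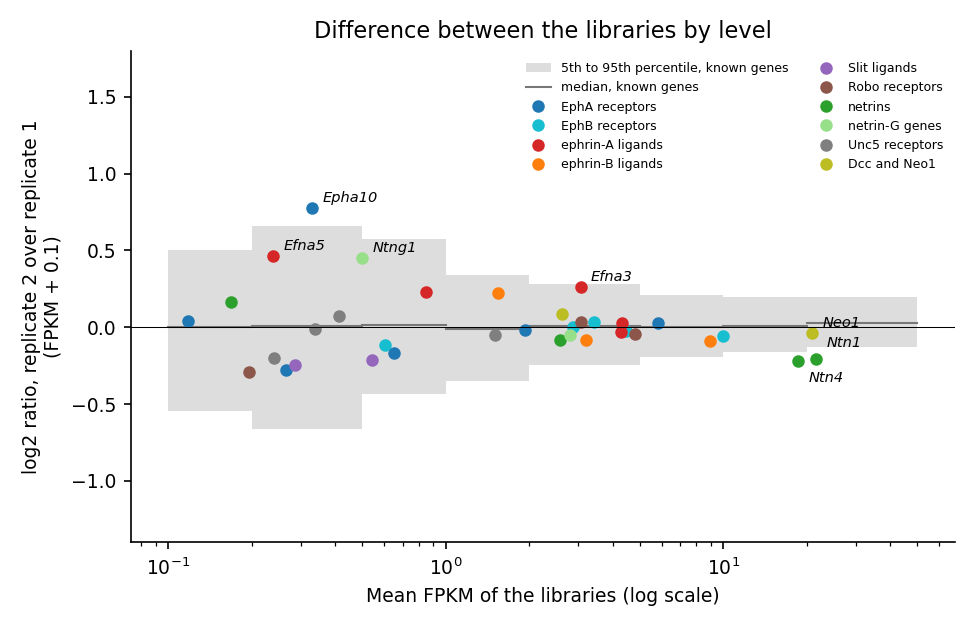
Log2 ratio of replicate 2 over replicate 1 at FPKM + 0.1 (vertical axis) against the mean FPKM of the libraries on a log scale (horizontal axis) for the 36 guidance genes above 0.1, coloured by family; grey bands are the 5th to 95th percentile and grey lines the median of known genes in each interval of means. *Ntn1* (-0.21), *Ntn4* (-0.22) and *Epha10* (0.78) lie outside the band.

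Members that neighbour each other in the genome differed in level at some loci and less at others. On chromosome 3 of GRCm38 *Efna1*, *Efna3* and *Efna4* follow each other on the minus strand between 89271733 and 89338028 with no other protein coding gene between them, and had mean FPKM of 0.848, 3.06 and 4.30. *Efna4* was 5.10-fold ± 0.570 above *Efna1*. On chromosome 4, *Ephb2* (from 136647539 to 136835988, mean FPKM 2.88) and *Epha8* (from 136929419 to 136956816, at 0.1) lie 93.4 kb apart on the same strand with 3 coding genes between them. *Robo1* (4.79) and *Robo2* (3.07) lie on opposite strands of chromosome 16, 846 kb apart with no coding gene between them. *Robo4* (at 0.1) and *Robo3* (0.196) lie end to end on chromosome 9, 0.553 kb apart.

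Promoters of these genes are shown because their CpG content differed little between members above FPKM 1 and members at or below it. RefSeq promoters (GRCm38.p6, 250 bases before to 50 after a gene's start) were matched for 36 of the 41 members. The first 3 below belong to members above FPKM 1: *Neo1* (chr9:59036392-59036691, minus strand), *Ephb3* (chr16:21204545-21204844, plus strand) and *Ntng2* (chr2:29248050-29248349, minus strand), which are high, middle and low in CpG. The next 3 belong to members at 0.1 in both libraries: *Epha8* (chr4:136956767-136957066, minus strand), *Slit3* (chr11:35121206-35121505, plus strand) and *Robo4* (chr9:37401722-37402021, plus strand). Each runs 5′ to 3′ in the direction of the gene, with every CG in capitals.
Neo1: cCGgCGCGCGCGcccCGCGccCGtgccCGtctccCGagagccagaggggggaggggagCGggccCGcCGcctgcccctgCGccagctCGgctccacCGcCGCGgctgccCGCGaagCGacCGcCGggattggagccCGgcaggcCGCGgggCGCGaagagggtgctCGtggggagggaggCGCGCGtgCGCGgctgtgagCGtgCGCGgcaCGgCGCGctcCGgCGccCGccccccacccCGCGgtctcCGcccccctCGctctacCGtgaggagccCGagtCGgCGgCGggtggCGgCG
Ephb3: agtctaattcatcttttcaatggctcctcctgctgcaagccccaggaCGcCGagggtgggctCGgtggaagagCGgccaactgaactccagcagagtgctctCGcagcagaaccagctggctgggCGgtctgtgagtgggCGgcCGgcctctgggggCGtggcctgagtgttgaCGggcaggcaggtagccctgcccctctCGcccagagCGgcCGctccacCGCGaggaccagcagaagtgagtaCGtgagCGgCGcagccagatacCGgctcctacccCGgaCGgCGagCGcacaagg
Ntng2: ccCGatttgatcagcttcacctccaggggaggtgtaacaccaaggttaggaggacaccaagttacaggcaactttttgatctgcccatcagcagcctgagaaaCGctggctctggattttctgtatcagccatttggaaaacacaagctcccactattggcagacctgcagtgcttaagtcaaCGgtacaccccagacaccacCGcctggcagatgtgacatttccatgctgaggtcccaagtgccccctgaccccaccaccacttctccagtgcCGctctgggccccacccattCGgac
Epha8: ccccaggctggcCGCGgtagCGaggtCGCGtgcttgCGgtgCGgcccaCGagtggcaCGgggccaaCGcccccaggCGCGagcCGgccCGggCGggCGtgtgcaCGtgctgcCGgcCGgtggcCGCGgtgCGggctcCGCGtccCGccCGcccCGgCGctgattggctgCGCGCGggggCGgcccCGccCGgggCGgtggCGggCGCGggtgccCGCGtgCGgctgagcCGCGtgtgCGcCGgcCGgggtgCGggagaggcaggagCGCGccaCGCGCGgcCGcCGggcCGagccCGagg
Slit3: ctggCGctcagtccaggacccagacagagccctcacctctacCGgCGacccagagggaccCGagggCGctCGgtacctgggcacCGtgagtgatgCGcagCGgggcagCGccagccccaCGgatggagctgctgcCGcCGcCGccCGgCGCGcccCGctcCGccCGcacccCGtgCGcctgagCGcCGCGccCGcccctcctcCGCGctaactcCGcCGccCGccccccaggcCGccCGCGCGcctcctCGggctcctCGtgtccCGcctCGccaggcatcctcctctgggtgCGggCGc
Robo4: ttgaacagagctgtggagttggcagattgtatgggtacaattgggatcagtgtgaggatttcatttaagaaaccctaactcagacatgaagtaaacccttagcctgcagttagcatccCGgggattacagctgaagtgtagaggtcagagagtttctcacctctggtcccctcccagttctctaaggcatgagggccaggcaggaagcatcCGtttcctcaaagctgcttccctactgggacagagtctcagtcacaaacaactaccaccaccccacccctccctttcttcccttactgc

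The 300 bases of *Neo1* hold 54 CG and those of *Epha8* 56, while the FPKM were 21.2 and 20.6 for *Neo1* and 0.1 in both libraries for *Epha8*. *Slit3*, also at 0.1, has 41 CG, compared with 23 in *Ephb3*, whose FPKM was 10.2 and 9.80. *Ntng2* has 6 CG at an FPKM of 2.86 and 2.76, and *Robo4* 2 CG at 0.1. The *Ntng2* window lies within the GENCODE span of that gene (29194541 to 29253005, minus strand), away from its 5′ end. Whether the RNA starts at this window was not tested. The observed over expected ratio of CG, which corrects for the C and G content of each window, was 1.05 for *Neo1*, 1.06 for *Epha8*, 0.928 for *Slit3*, 0.692 for *Ephb3*, 0.275 for *Ntng2* and 0.106 for *Robo4*. These 6 were chosen with their CG content and level known, so they show the range and test no relation.

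*Dcc*, *Efnb3*, *Slit1*, *Unc5d* and *Ntn1*, the member with the highest mean, had no matched promoter. Over all matched members the ratio was alike above and below FPKM 1. Its median was 0.667 for the 18 members with a mean above FPKM 1 (0.275 to 1.05), with the ratio averaged over a gene's starts. For the 18 at or below FPKM 1 it was 0.681 (0.106 to 1.10). Split at FPKM 5, the medians were less alike, 0.839 above and 0.673 at or below. The 5 members at 0.1 in both libraries had a lower median of 0.572, where 6105 known genes at 0.1 had 0.207. For all known genes with a RefSeq promoter the medians were 0.780 above FPKM 1 (8398 genes) and 0.253 at or below it (7913 genes). Of the 18 low members only *Ntn5* (0.132) and *Robo4* lay under this 0.253. The GC box GGGCGG, searched on both strands, was present in 11 of the 18 high and 14 of the 18 low members (61.1% and 77.8%), and in 72.4% and 27.2% of known genes above and at or below FPKM 1. CCAAT, on both strands, was in 10 and 5 members (55.6% and 27.8%), and in 44.1% and 40.1% of known genes. TATAAA, on both strands, was in 1 member of each class, *Efnb2* and *Slit2* (5.56%), and in 7.97% and 21.1% of known genes. These are matches of letters in a window around the annotated start, and no binding was measured.

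**Figure D5:**
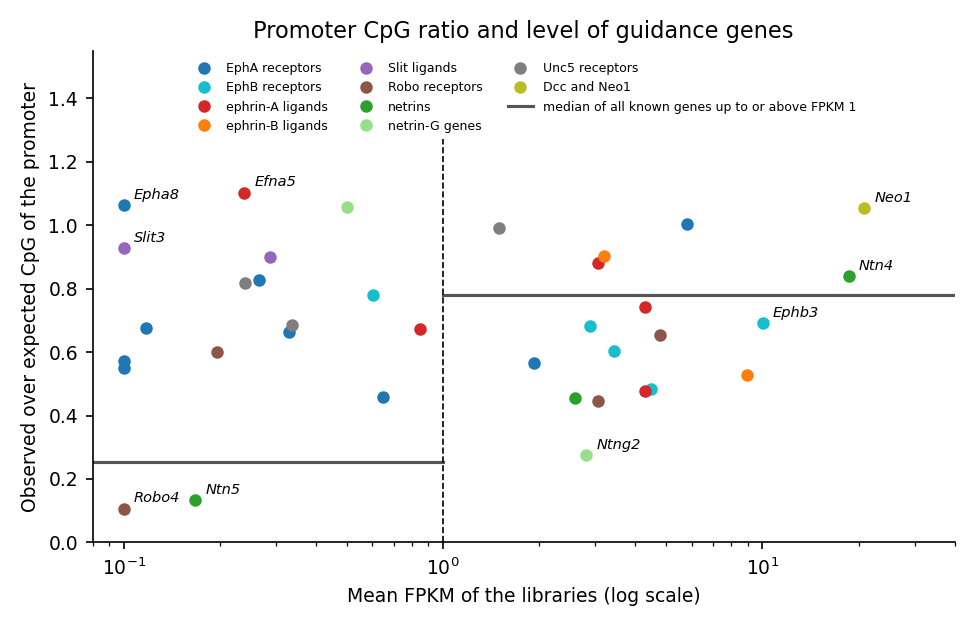
Observed over expected CpG of the RefSeq promoter (vertical axis) against mean FPKM on a log scale (horizontal axis) for 36 guidance genes, coloured by family; the dashed line is FPKM 1 and the grey lines are the medians of all known genes at or below it (0.253) and above it (0.780). All low members except *Ntn5* and *Robo4* lie above the lower grey line.

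The listed genes that act with these receptors or ligands, or are relatives of such genes, were nearly all present. Of 63 partner genes, counted once each, 61 (96.8%) exceeded FPKM 1 in both libraries, beside the 47.7% of known genes given above. Their median FPKM was 15.1. The partners were chosen for their roles but with earlier results of these data known, so this share is no result about the pathways. All 27 partners of Eph receptors and ephrins were above FPKM 1, led by the Src family kinase gene *Fyn* (104 and 107 in replicates 1 and 2), *Sdcbp*, of the ephrin-B-binding PDZ protein syntenin (73.4 and 79.7), and *Adam10*, a protease that cleaves ephrins (42.5 and 43.2). The lowest was *Kalrn*, an exchange factor for Rac, with 1.07 in each library. All 19 partners of Slits and Robos were above FPKM 1 as well. The syndecan gene *Sdc3* had 87.9 and 88.7, and *Flrt3*, of a Robo1 and UNC5 binding protein, was the lowest (3.63 and 3.91). *Nell2*, of a secreted ligand of ROBO3, had 66.1 and 70.4, where *Robo3* itself had 0.226 and 0.166. The Slit-Robo GTPase activating protein genes *Srgap2*, *Srgap3* and *Srgap1* had mean FPKM of 31.3, 8.22 and 3.81.

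Of 25 netrin partners 23 were above FPKM 1 in both libraries. *Maged1*, of a protein that binds UNC5A, was the highest (174 and 176), followed by *Fyn* and by *Lrrc4b* (38.9 and 37.8). *Lrrc4b*, of the NGL protein that binds LAR phosphatases, is counted in the 25 as a relative of the NGL genes *Lrrc4* and *Lrrc4c*. *Flrt1* was at 0.1 in both libraries and *Dscaml1* at 0.826 and 0.631. Other ligands of the receptors differed in level: *Rgma*, of a repulsive ligand of neogenin, had 26.6 and 26.3 and *Rgmb* 3.07 and 2.51. *Flrt2*, of a ligand of UNC5 proteins, had 3.37 and 3.50. The NGL genes *Lrrc4* and *Lrrc4c*, whose products bind netrin-G2 and netrin-G1, had 3.66 and 4.07, and 2.88 and 3.17. *Draxin*, of a secreted antagonist of netrin signalling, had 6.31 and 6.68.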

How the data were processed

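RNA-Seq libraries of NSC replicates 1 and 2 were analysed. The authors aligned paired reads to mm10 with TopHat2 2.0.11 and Bowtie2 2.2.2, computed FPKM with Cufflinks 1.3.0 on known genes and lncRNAs together with multi-read and bias correction, and deposited the FPKM of each library. No deposited FPKM is under 0.1, and by the supplementary methods lower values are set to that limit. The kit does not mark strand.

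The FPKM were used as deposited, with Python 3.11.15, NumPy 2.4.6 and pandas 2.3.3, and drawn with matplotlib 3.10.9. Levels were counted against FPKM 0.1, 1 and 10, and ratios between libraries taken at log2(FPKM + 0.1). With 1 condition no test between groups was made. The call of genes that differ between libraries was tried on simulated data, with less spread than these libraries have. Counts against the thresholds and the CpG ratio were checked on small examples only. Overlaps and positions are from GENCODE M21 on GRCm38, the assembly of mm10, and promoters from RefSeq. The members and lists were chosen with earlier results of these data known. Every member is named; of each partner list the 3 highest and the lowest are named, except that of the 3 highest Slit and Robo partners only *Sdc3* is reported here, and *Nell2*, *Srgap1*, *Srgap2*, *Srgap3*, *Rgma*, *Rgmb*, *Flrt2*, *Dscaml1*, *Lrrc4*, *Lrrc4c* and *Draxin* were added after their values were seen. The 6 promoters shown were chosen after their CpG content and level were seen. Other thresholds, pseudocounts, filters and scales, and each library alone, were tried.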

Additional observations from a re-analysis of the deposited data

Results flagged for a closer look

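In the lncRNA table, 18 lncRNAs have a span that meets that of a guidance gene, at 14 of the 41 genes, and 17 of them were at FPKM 0.1 in both libraries. The exception was *6530402F18Rik*, with 2.42 and 2.09 in replicates 1 and 2, a level above the lowest value in a table that the comparisons above do not use. The gene is also listed in the table of known genes. It is on the same strand as *Ntng2* and shares 558 exon bases with it, 14.0% of those of *Ntng2*, which had 2.86 and 2.76. The part of shared reads in either value was not tested.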

How the results depend on the processing

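No paired analysis was possible because the libraries are of 1 condition. With either library left out, the members above FPKM 1 stayed 21, those at the lowest value 5 and the partner genes above FPKM 1 61, and the median FPKM of the members was 1.41 to 1.47. Above FPKM 0.1 in place of 1 there were 36 members (87.8%, with 57.8% of known genes), and above FPKM 5 there were 6 (14.6%, with 35.0%), so the share of members was above that of known genes at the lower threshold and below it at the higher one. Only members with a mean above 0.1 had a median of 2.26. With each library rescaled to a sum of 1000000, which multiplies FPKM by 2.83 and 2.72, the median was 4.17 (1.93 for known genes), and 27 members (65.9%) and 52.6% of known genes passed a value of 1. The log2 ratios of *Ntn1* and *Ntn4* between the libraries became -0.27 and -0.28 on this scale, where the median of known genes above FPKM 1 went from 0.02 to -0.04. With no filter on the mean, 1 member, *Epha10*, differed more than 1.5-fold between the libraries at FPKM + 0.1. Split at FPKM 5, the median CpG ratio of promoters was 0.839 above and 0.673 at or below. Taking the highest ratio of each gene's starts, a choice made after seeing the data, gave 0.683 for members at or below FPKM 1. In all, 24 of the values tried, some of them given above, stayed within 1.5 times the count or within the spread between libraries. Another 9 moved beyond this, among them the counts of members above FPKM 0.1 and above FPKM 5. Without read counts, a value of 0.1 does not separate a low level from no RNA. The number of fragments behind members below FPKM 1 is not given.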
